A study of Mus musculus with 8 samples.

Results

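The epidermal growth factor (EGF) receptor genes considered here are the ligands *Areg*, *Ereg*, *Hbegf* and *Tgfa*, the receptors *Egfr*, *Erbb2* and *Erbb3*, and the feedback inhibitors *Errfi1*, *Dusp6* and *Spry2*. They were chosen by 1 of them, because the difference of *Errfi1* between genotypes was among the largest decreases of the series, and the other genes were added as its ligands, receptors and fellow inhibitors. Probe sets were found for 9 of the 10 genes, of 19505 named genes on the array, and each of the 9 had 1 probe set. No probe set carried the name *Areg*, so that gene was not analysed here. *Abcc6*-/- (KO) AF tissue was low in *Errfi1*, about 0.169 times the WT level, and the other 8 genes did not reach the study's cutoff for differentially expressed genes, an unadjusted p ≤ 0.01 with a fold change ≥ 1.75.

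The annulus fibrosus (AF) is the fibrous ring of the intervertebral disc. AF tissue was taken from 4 KO mice (mice 6, 7, 8 and 9) and 4 WT mice (mice 1, 2, 3 and 5), all female and aged 7 months, on a C57BL6J background. The KO mice lack *Abcc6*, a liver and kidney transporter gene, in all cells, and model pseudoxanthoma elasticum. The lumbar discs of a mouse were pooled and measured on 1 Mouse Clariom S array, so mice are the replicates, and no mouse received a treatment in this comparison.

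Ligands of the EGF family are made as membrane proteins, and proteases cut them free to bind receptors of the ERBB family. Paired receptors phosphorylate each other and pass the signal through the exchange factor SOS and RAS to the ERK kinases, which turn on early genes such as those of the FOS and EGR families. Among the genes induced are inhibitors that close the loop: ERRFI1, also called MIG6, binds the receptor kinase domain, DUSP6 removes phosphates from ERK, and SPRY2 acts between the receptor and RAS. In mice, loss of *Errfi1* is known to lead to joint degeneration and to raise EGF receptor signalling in cartilage.

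Promoter sequence is shown for *Errfi1*, the gene that chose the set, for *Areg*, the only other of the 7 genes searched with a motif arrangement like it, and for *Sos1*, the pathway gene that reached the cutoff in every setting tried. RefSeq windows of GRCm38.p6, the 250 bases before an annotated start, were at hand for 7 of the 10 genes (8 windows). *Ereg*, *Hbegf* and *Erbb3* had no window and were not searched. On both strands 4 motifs were searched: the cyclic AMP response element (CRE, TGACGTCA), the AP-1 site (TGANTCA), the TATA box (TATAAA) and an ETS motif (CCGGAA). Capitals mark the motif matches, and each sequence is printed 5′ to 3′ on the strand of its gene.
*Errfi1*, chr4:150854820-150855069, plus strand: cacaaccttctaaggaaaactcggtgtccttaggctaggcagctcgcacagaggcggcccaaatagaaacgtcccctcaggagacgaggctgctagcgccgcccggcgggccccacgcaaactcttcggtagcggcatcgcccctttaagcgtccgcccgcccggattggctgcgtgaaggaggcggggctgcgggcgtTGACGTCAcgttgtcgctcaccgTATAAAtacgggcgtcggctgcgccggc
*Areg*, chr5:91139349-91139598, plus strand: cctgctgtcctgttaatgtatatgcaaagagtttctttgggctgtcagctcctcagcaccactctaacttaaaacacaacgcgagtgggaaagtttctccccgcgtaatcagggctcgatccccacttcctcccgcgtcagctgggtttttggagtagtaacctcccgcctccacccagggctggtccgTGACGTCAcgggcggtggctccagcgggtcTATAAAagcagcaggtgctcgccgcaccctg
*Sos1*, chr17:80480454-80480703, minus strand: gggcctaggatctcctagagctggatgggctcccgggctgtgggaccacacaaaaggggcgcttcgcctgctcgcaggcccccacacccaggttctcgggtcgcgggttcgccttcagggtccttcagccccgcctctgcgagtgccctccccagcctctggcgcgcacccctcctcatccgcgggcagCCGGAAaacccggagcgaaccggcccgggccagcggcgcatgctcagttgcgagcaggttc
The *Errfi1* window holds a CRE that begins 51 bases before the start and a TATA box that begins 28 bases before it, while the window of its other annotated start holds none of the 4 motifs. The *Areg* window holds the same pair, with the CRE at 61 and the TATA box at 31 bases before the start. The *Sos1* window holds an ETS motif 61 bases before the start, and the *Egfr* window holds one 119 bases before it on the opposite strand. The windows of *Dusp6*, *Spry2*, *Erbb2* and *Tgfa* hold none of the 4 motifs. Of the other pathway genes at the cutoff, *Nr4a1* has an ETS motif 125 bases before the start, and *Atf3* and *Fosb* have none of the 4 motifs. Of all 32851 windows, 1.55% hold the CRE, 6.75% the AP-1 site, 12.4% the TATA box and 12% the ETS motif. A match describes letters in a window and is not a binding site, and the build of the array's own annotation is not given in the sources used here.

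Array values are log2 signals after the authors' signal space transformation and robust multi-array normalization (sst-RMA). The array's negative control probe sets (5222) give a background, and their median ran from 5.40 to 6.0 in KO arrays and from 5.43 to 5.82 in WT arrays. Positive minus negative control medians, the control contrast, averaged 3.13 ± 0.83 in KO arrays and 3.82 ± 0.53 in WT arrays (SD, n = 4 each), a difference of -0.69 (exact permutation test, 2-sided, p = 0.2). Arrays correlated at 0.893 to 0.969. Of 12 AF markers, 8 lay above the negative control median on all arrays and 1, the transcription factor gene *Scx*, on none, and the mean of the 12 ran from 11.2 to 12.1 in KO mice and from 11.5 to 12.3 in WT mice. All 12 markers of neutrophils, another cell type, lay above background on all arrays, with means of 14.6 to 16.8 in KO mice and 16.1 to 16.7 in WT mice. The probe set of the deleted gene was below background on 3 of 4 KO arrays and on 4 of 4 WT arrays, and it checks no genotype. In such bulk samples, fewer cells of a type and less RNA per cell cannot be told apart.

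Ligand genes were low throughout. *Hbegf*, which encodes heparin-binding EGF-like growth factor, had log2 signals of 6.76, 5.87, 5.95 and 5.91 in KO mice 6, 7, 8 and 9, against 5.85, 6.63, 8.26 and 5.70 in WT mice 1, 2, 3 and 5. It lay above the negative control median on 7 of 8 arrays, with KO mouse 7 below it. The highest value was that of WT mouse 3, and the other 3 WT mice overlapped the KO mice. The means were 6.12 ± 0.43 in KO mice and 6.61 ± 1.17 in WT mice (SD, n = 4 each), a log2 fold change of -0.49 (standard error 0.53, limma, adjusted p = 0.859). Without WT mouse 3 the log2 fold change of *Hbegf* was 0.06, so its sign rests on that mouse.

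The ligands epiregulin (*Ereg*) and transforming growth factor alpha (*Tgfa*) were below the negative control median on all 8 arrays. *Ereg* ran from 3.84 to 5.38 in KO mice and from 4.00 to 4.89 in WT mice, with an adjusted p of 0.933 from limma. *Tgfa* ran from 4.08 to 4.36 in KO mice and from 3.81 to 4.44 in WT mice, with an adjusted p of 0.866 from limma. Values of the genotypes overlapped for both, and no fold change is read from signals at this level.

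Of the receptors, only *Erbb2* lay above background on all 8 arrays. ERBB2 binds no ligand itself and serves as the partner of the other receptors. Its log2 signals were 7.18, 6.08, 5.98 and 6.26 in KO mice 6, 7, 8 and 9, against 7.24, 6.68, 7.28 and 6.84 in WT mice 1, 2, 3 and 5. KO mice 7, 8 and 9 lay below every WT mouse, and KO mouse 6 lay among them. The log2 fold change of *Erbb2* was -0.63 (standard error 0.33, limma, adjusted p = 0.848), with means of 6.37 ± 0.55 in KO mice and 7.01 ± 0.30 in WT mice (SD, n = 4 each).

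*Egfr*, the receptor of the ligands above, had log2 signals of 4.87, 5.66, 4.93 and 4.78 in KO mice 6, 7, 8 and 9, against 4.80, 4.80, 4.87 and 5.20 in WT mice 1, 2, 3 and 5. All 8 values were below the negative control median of their arrays, the genotypes overlapped, and the adjusted p was 0.913 from limma. *Erbb3*, the neuregulin receptor with a weak kinase, was also below background on all 8 arrays, from 4.94 to 5.45 in KO mice and from 4.04 to 5.14 in WT mice (limma, adjusted p = 0.858). A probe set below background gives no more than an upper bound on its transcript, so a difference in *Egfr* or *Erbb3* was not measurable on these arrays.

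**Figure D1:**
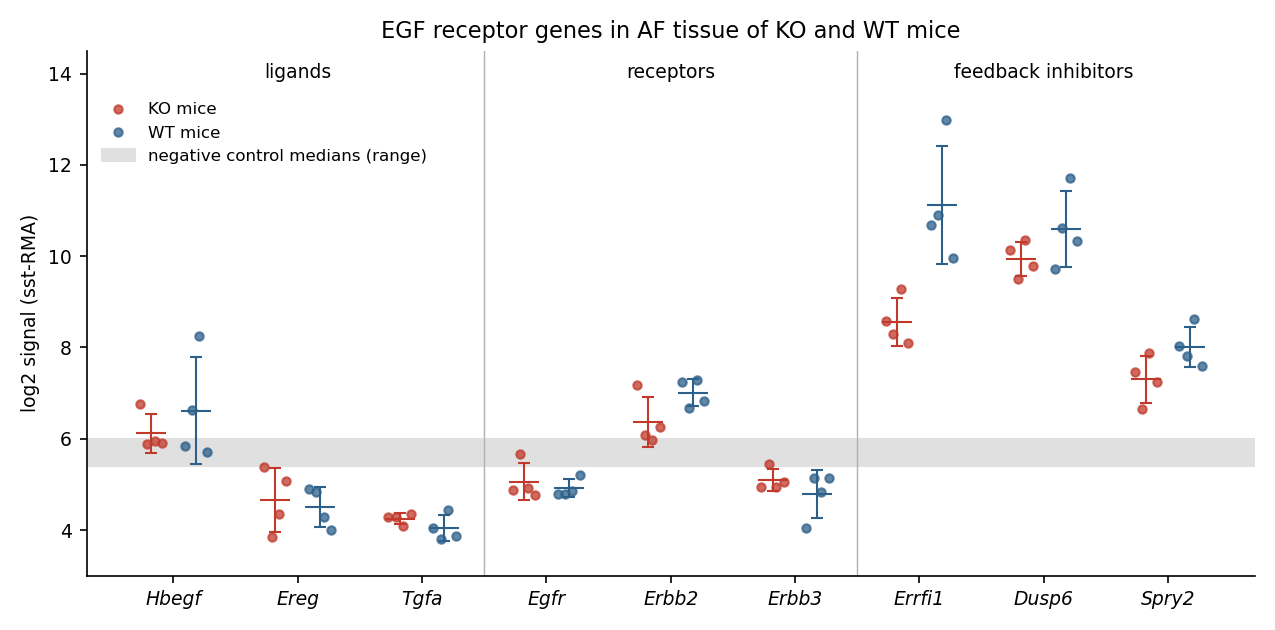
Log2 signal (vertical axis, sst-RMA) of the 9 measured EGF receptor genes in 4 KO mice (red, left) and 4 WT mice (blue, right), with 1 point per mouse, bars for mean and SD, and a grey band for the range of the negative control medians. *Ereg*, *Tgfa*, *Egfr* and *Erbb3* lie at or under the band, and *Errfi1* is the gene whose KO and WT points do not overlap.

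The feedback inhibitors were the best measured of the set, with all 3 above background on all 8 arrays. *Errfi1* had log2 signals of 8.58, 8.29, 9.28 and 8.09 in KO mice 6, 7, 8 and 9, against 10.68, 10.90, 12.98 and 9.96 in WT mice 1, 2, 3 and 5. Every KO mouse lay below every WT mouse, with KO mouse 8 the highest of its genotype and WT mouse 3 far above the other WT mice. The means were 8.56 ± 0.52 in KO mice and 11.13 ± 1.30 in WT mice (SD, n = 4 each), a log2 fold change of -2.57 (standard error 0.58). This is the value that chose the genes, so it is given as a description, with no test.

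The position of *Errfi1* against the negative controls restates the same values against each array's background. Its signal exceeded 86.6%, 82.6%, 94.8% and 83.7% of the negative control probe sets in KO mice 6, 7, 8 and 9, against 97.1%, 95.9%, 98.7% and 95.2% in WT mice 1, 2, 3 and 5. KO values thus all fell short of the 95th percentile of the negative controls and WT values all passed it, with KO mouse 8 and WT mouse 5 close together. That percentile itself ran from 9.35 to 10.96 on KO arrays and from 9.49 to 10.45 on WT arrays. These positions are a description and add no evidence to the values that chose the genes. Among the 65 named decreases at the cutoff, *Errfi1* stood at rank 3 by log2 fold change, just after *Fosb* (-2.60) and just before *Atf3* (-2.40).

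The size of the difference in *Errfi1* depended on 1 WT mouse and on the control contrast. Without WT mouse 3 the log2 fold change was -1.95 (standard error 0.39), and with the control contrast as a covariate it was -2.07 (standard error 0.61). The control contrast was 2.99, 2.37, 4.30 and 2.85 on the arrays of KO mice 6, 7, 8 and 9, against 4.28, 3.17, 4.22 and 3.61 on those of WT mice 1, 2, 3 and 5. KO mice 6, 7 and 9 had a lower contrast than every WT mouse, and the part of the contrast in the difference was not tested beyond that covariate.

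**Figure D2:**
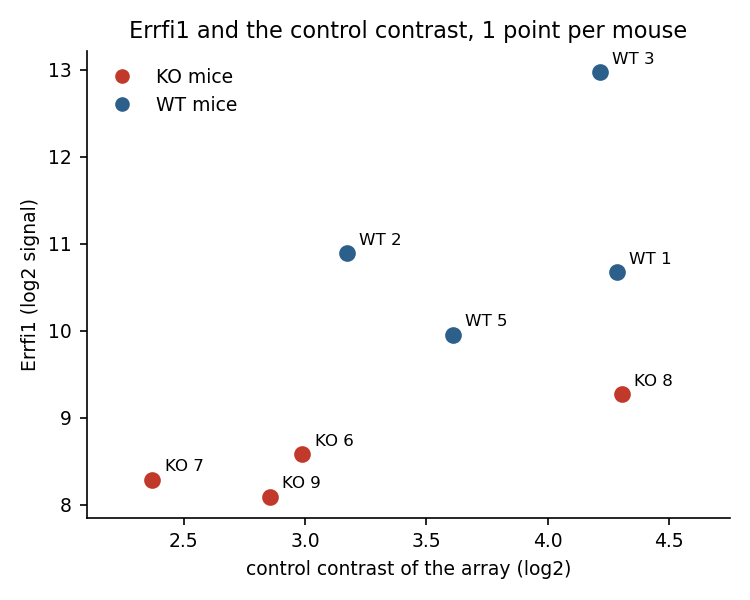
*Errfi1* log2 signal (vertical axis) against the control contrast of the array (horizontal axis, log2), 1 point per mouse, KO red and WT blue. The WT arrays lie at contrasts of 3.17 to 4.28, and 3 of the 4 KO arrays lie lower, at 2.37 to 2.99.

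*Dusp6*, a phosphatase gene that ERK signalling switches on, had log2 signals of 10.13, 9.51, 10.36 and 9.79 in KO mice 6, 7, 8 and 9, against 9.72, 10.62, 11.72 and 10.34 in WT mice 1, 2, 3 and 5. WT mouse 3 was again the highest, and WT mice 1 and 5 lay within the range of the KO mice. The means were 9.95 ± 0.37 in KO mice and 10.60 ± 0.83 in WT mice (SD, n = 4 each), a log2 fold change of -0.65 (standard error 0.42, limma, adjusted p = 0.848). Without WT mouse 3 it was -0.28.

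*Spry2*, a Sprouty family gene, had log2 signals of 7.46, 6.64, 7.88 and 7.24 in KO mice 6, 7, 8 and 9, against 8.02, 7.82, 8.62 and 7.59 in WT mice 1, 2, 3 and 5. KO mouse 8 lay above WT mice 2 and 5, and the other KO mice lay below all WT mice. The means were 7.31 ± 0.52 in KO mice and 8.01 ± 0.44 in WT mice (SD, n = 4 each), a log2 fold change of -0.71 (standard error 0.35, limma, adjusted p = 0.848). Its unadjusted p of 0.0672 was the lowest of the 8 genes other than *Errfi1*.

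Over the 9 measured genes, 1 was lower in KO mice at the cutoff of unadjusted p ≤ 0.01 and fold change ≥ 1.75, namely *Errfi1*, beside 0.297% of all 22206 probe sets, and 0 were higher, beside 0.428%. The same gene was the 1 without overlap on the lower side, beside 0.973% of all probe sets, and 0 lay without overlap on the higher side, beside 1.55%. Since *Errfi1* chose the set, nothing is read from these shares. At an adjusted p under 0.05, 0 of all probe sets (0%) passed with limma, against 1172 at an unadjusted p under 0.05, and an unmoderated test of each probe set gave 0 and 1051. By chance alone a share of 0.05 of the 22206 probe sets is expected at an unadjusted p under 0.05, and both unadjusted counts lie near that share. The median log2 fold change of the 9 genes was -0.49, beside 0.03 over all probe sets, and 0.06 without WT mouse 3. That median includes the 4 genes below background on all arrays, whose differences were not measurable. WT mouse 3, singled out after its values were seen, had the highest value of the 8 mice in 6 of the 9 genes, beside 13.6% of all probe sets.

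Other genes were taken from 7 lists, called the pathway lists, of which 87 of 94 genes were measured (89 probe sets). The list of glucocorticoid-induced genes holds targets of another receptor, outside the EGF receptor pathway. Its 11 probe sets, all with a lower mean in KO mice (median log2 fold change -1.01), count in the totals given next. Of the 89 probe sets, 4 were lower in KO mice at the cutoff (4.49%, beside 0.297% of all probe sets) and 0 were higher. Those 4 were *Sos1*, *Fosb*, *Atf3* and *Nr4a1*. All 4 had an adjusted p of 0.848 from limma. A mean lower in KO mice was found for 70 of the 89 probe sets, beside 47.6% of all probe sets, and the median log2 fold change was -0.49. Of the 89, 55 lay above background on all arrays, so the direction of the others rests wholly or in part on signal at background. With the filter on low signal, the median over all probe sets kept was -0.08. The lists were put together with results of these data known, so their shares are no independent evidence.

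*Sos1* encodes the exchange factor that loads RAS with GTP after receptor activation. It had log2 signals of 8.86, 9.08, 9.28 and 8.99 in KO mice 6, 7, 8 and 9, against 11.09, 10.29, 10.68 and 10.12 in WT mice 1, 2, 3 and 5. The genotypes did not overlap, the spread within each was small, and WT mouse 3 was not the highest. The means were 9.05 ± 0.18 in KO mice and 10.55 ± 0.43 in WT mice (SD, n = 4 each), a log2 fold change of -1.49 (standard error 0.29, limma, adjusted p = 0.848). *Sos1* was at the cutoff in each of the 17 settings tried, whereas *Fosb* was in 9, *Nr4a1* in 9 and *Atf3* in 8.

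The rest of the RAS-ERK cascade was not called. Of its 13 measured genes, of 19 listed, 11 had a lower mean in KO mice, with a median log2 fold change of -0.48, and *Sos1* was the 1 at the cutoff (7.69%). The other 2 lists that act against the signal had 0 at the cutoff. Among 13 other EGF receptor inhibitors 11 had a lower mean in KO mice (median -0.41), and the gene with the smallest p was *Rnf41*, a ubiquitin ligase gene that acts on ERBB3 (-0.78, standard error 0.34). Among 15 other ERK pathway inhibitors 11 had a lower mean in KO mice (median -0.07), led by *Dusp4*, a nuclear phosphatase gene (-0.70, standard error 0.33). The lists of ligands and of their release also had 0 at the cutoff. Of 8 other EGF family ligand and receptor genes 7 had a higher mean in KO mice, with *Erbb4*, the other neuregulin receptor, at 0.80 (standard error 0.38), and 3 of the 8 were above background on all arrays. Of 8 ligand shedding genes 7 had a lower mean in KO mice, with *Adam10*, a sheddase gene, at -0.72 (standard error 0.46). *Erbb4* lay above background on 6 of 8 arrays and *Dusp4* on 4 of 8, so their fold changes rest in part on signal at background. *Rnf41*, *Dusp4*, *Erbb4* and *Adam10* each had an adjusted p of 0.848 from limma.

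These list medians shifted with the arrays used. With the control contrast as a covariate, a mean lower in KO mice was found for 4 of 8 shedding genes (median -0.05), 4 of 8 other ligand and receptor genes (median -0.01), 8 of 13 EGF receptor inhibitors (median -0.29), 10 of 15 ERK pathway inhibitors (median -0.14) and 8 of 13 cascade genes (median -0.24). With 1 mouse left out, the median of the shedding genes ran from -0.71 (without KO mouse 8) to -0.14 (without WT mouse 3), and that of the other ligand and receptor genes from 0.10 (without WT mouse 3) to 0.37 (without KO mouse 8). For the EGF receptor inhibitors it ran from -0.59 (without KO mouse 8) to -0.22 (without KO mouse 9). For the ERK pathway inhibitors it ran from -0.28 (without WT mouse 1) to -0.05 (without KO mouse 8), was -0.27 without KO mouse 6, and 8 of 15 were lower without WT mouse 3.

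**Figure D3:**
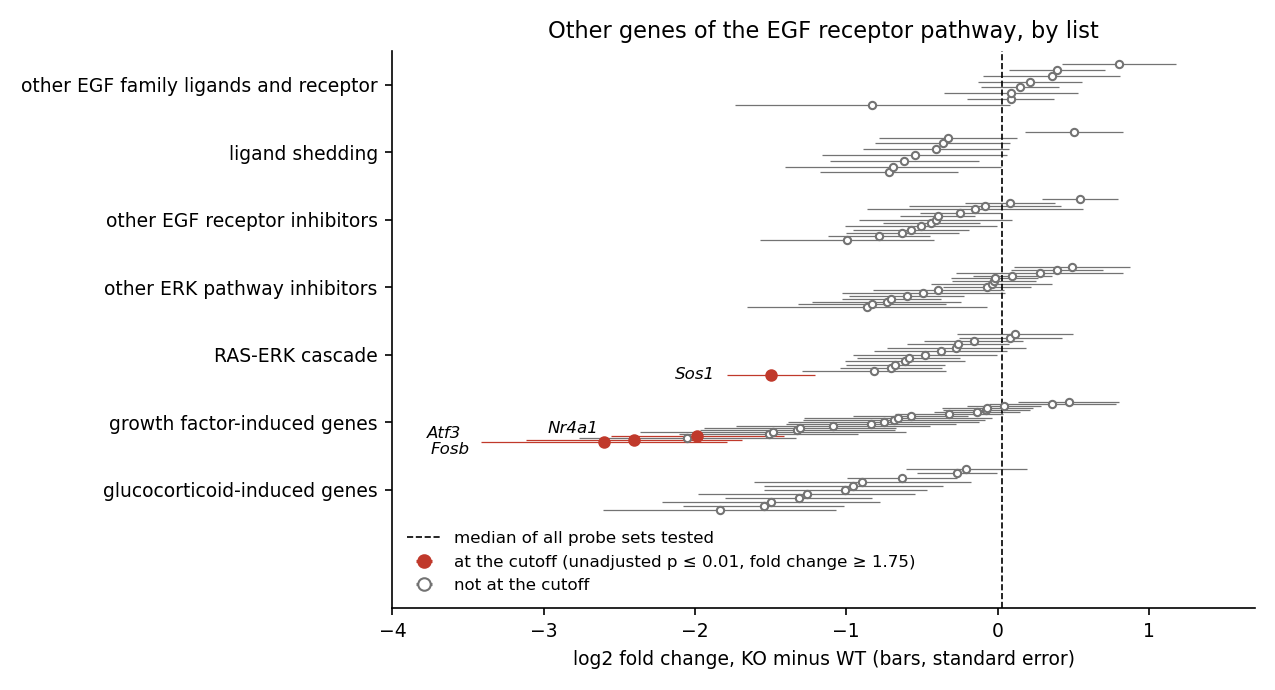
Log2 fold change (horizontal axis, KO minus WT, bars for standard error) of the 89 probe sets of the 7 pathway lists (rows), with filled red points at the cutoff and a dashed line at the median of all probe sets, 0.03. The 4 red points are *Sos1*, *Fosb*, *Atf3* and *Nr4a1*, and the growth factor-induced and glucocorticoid-induced lists reach furthest to the lower side.

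Genes that growth factors induce held the other 3 calls, 3 of 21 probe sets (14.3%, beside 0.297%), and 18 had a lower mean in KO mice with a median log2 fold change of -0.75. *Fosb*, an AP-1 subunit gene, had log2 signals of 10.48, 10.48, 10.68 and 9.06 in KO mice 6, 7, 8 and 9, against 11.62, 12.37, 15.58 and 11.52 in WT mice 1, 2, 3 and 5. The genotypes did not overlap, and WT mouse 3 stood far above the rest. The log2 fold change of *Fosb* was -2.60 (standard error 0.81) with all mice and -1.66 without WT mouse 3.

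*Atf3*, a stress-induced transcription factor gene, had log2 signals of 8.97, 7.71, 7.64 and 6.33 in KO mice 6, 7, 8 and 9, against 9.43, 10.26, 11.94 and 8.63 in WT mice 1, 2, 3 and 5. *Nr4a1*, an orphan nuclear receptor gene of the early response, had 7.71, 7.23, 7.57 and 6.83 in KO mice 6, 7, 8 and 9, against 9.06, 9.80, 10.78 and 7.63 in WT mice 1, 2, 3 and 5. In both genes WT mouse 5 lay below KO mouse 6 and the genotypes overlapped, with log2 fold changes of -2.40 (standard error 0.71) for *Atf3* and -1.98 (standard error 0.57) for *Nr4a1*. Without WT mouse 3 the log2 fold changes were -1.77 for *Atf3* and -1.50 for *Nr4a1*, and neither gene was at the cutoff.

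**Figure D4:**
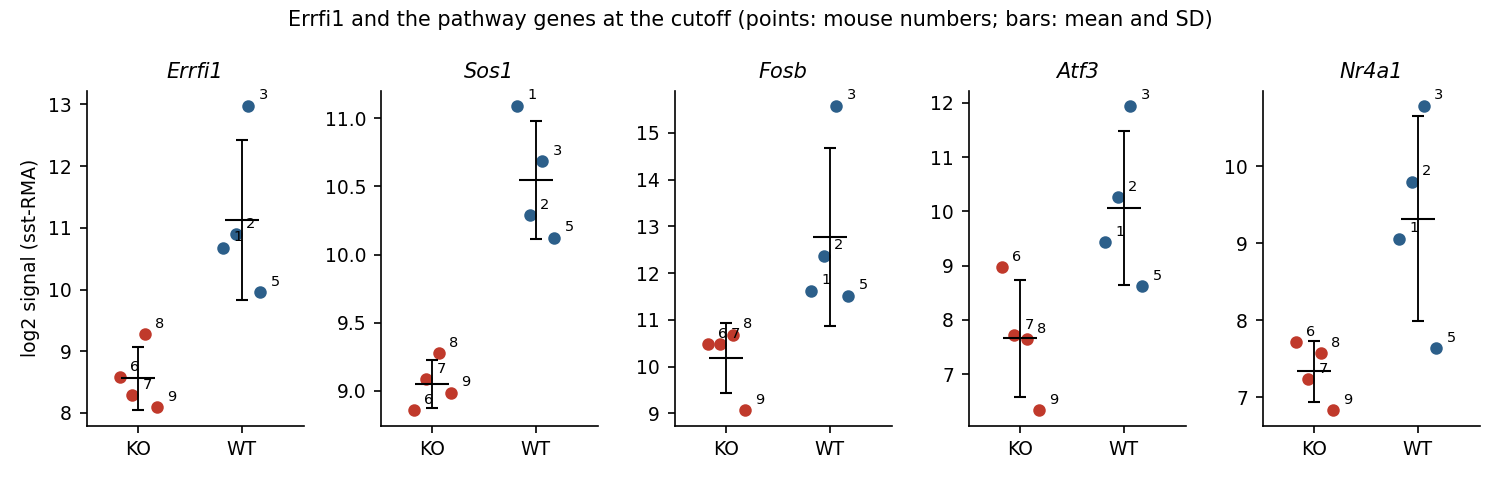
Log2 signal (vertical axes, a scale for each gene) of *Errfi1* and the 4 pathway genes at the cutoff, with points for mice 6, 7, 8 and 9 (KO, red) and 1, 2, 3 and 5 (WT, blue) and bars for mean and SD. WT mouse 3 is the highest point in *Errfi1*, *Fosb*, *Atf3* and *Nr4a1*, and WT mouse 1 is the highest in *Sos1*.

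*Errfi1* is also a known target of the glucocorticoid receptor, whose part in these values was not tested. All 11 glucocorticoid-induced probe sets had a lower mean in KO mice (median log2 fold change -1.01). Of these, 7 lay above background on all arrays, so the direction of the others rests wholly or in part on signal at background. None was at the cutoff, and the smallest p was that of *Tsc22d3*, which encodes GILZ, at -1.54 (standard error 0.53, limma, adjusted p = 0.848). Besides *Sos1* and *Fosb*, the pathway list probe set without overlap on the lower side was *Klf9*, of the glucocorticoid-induced list, above background on 5 of 8 arrays. The 1 on the higher side was *Cblc*, below background on all arrays (*Klf9* and *Cblc* were chosen for mention once values were known). Without overlap were thus 3 of 89 probe sets on the lower side, beside 0.973% of all probe sets, and 1 on the higher side, beside 1.55%.

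The mean of the growth factor-induced probe sets was 7.89, 7.39, 7.95 and 7.17 in KO mice 6, 7, 8 and 9, against 8.22, 8.27, 9.70 and 7.83 in WT mice 1, 2, 3 and 5. The mean of the glucocorticoid-induced probe sets was 7.93, 7.23, 7.47 and 7.03 in KO mice 6, 7, 8 and 9, against 8.43, 8.07, 9.76 and 7.55 in WT mice 1, 2, 3 and 5. WT mouse 3 was the highest of the 8 in both means and WT mouse 5 lay within the range of the KO mice in both. Highest in WT mouse 3 were 17 of the 21 growth factor-induced and 8 of the 11 glucocorticoid-induced probe sets. Without that mouse the medians were -0.35 and -0.52, and with the control contrast as a covariate they were -0.30 and -0.74.

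Between mice of 1 genotype, the probe sets that varied most like *Errfi1* were found by Pearson's r over the 8 arrays after each genotype's mean was subtracted, among 12453 named probe sets above background on average. These correlations are descriptions over arrays that share their tissue dissection and signal scale. The 6 highest were *Skil* (r = 0.983), a repressor gene of TGF-beta signalling, *Tm9sf2* (r = 0.981), an endosomal membrane protein gene, *Emp1* (r = 0.972), an epithelial membrane protein gene, *Map3k8* (r = 0.970), a kinase gene upstream of ERK, *Zfp36l1* (r = 0.969), an mRNA decay factor gene, and *Slc39a1* (r = 0.965), a zinc transporter gene. Without WT mouse 3 their r over 7 arrays ran from 0.832 (*Slc39a1*) to 0.925 (*Zfp36l1*).

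Of the EGF receptor genes, *Hbegf* had r = 0.862 with *Errfi1*, *Dusp6* had 0.850 and *Spry2* had 0.803, while *Erbb2* had 0.210 and *Egfr* had -0.253. Of those below background on all arrays, *Tgfa* had r = 0.629, *Erbb3* had -0.105 and *Ereg* had -0.069. Without WT mouse 3, *Spry2* had r = 0.732, *Dusp6* had 0.478 and *Hbegf* had 0.376, while *Tgfa* turned to -0.570. Of the pathway genes at the cutoff, *Fosb* had r = 0.940, *Nr4a1* had 0.885, *Atf3* had 0.807 and *Sos1* had 0.379, and without WT mouse 3 *Fosb* had 0.699, *Nr4a1* had 0.786, *Atf3* had 0.557 and *Sos1* had 0.449.

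**Figure D5:**
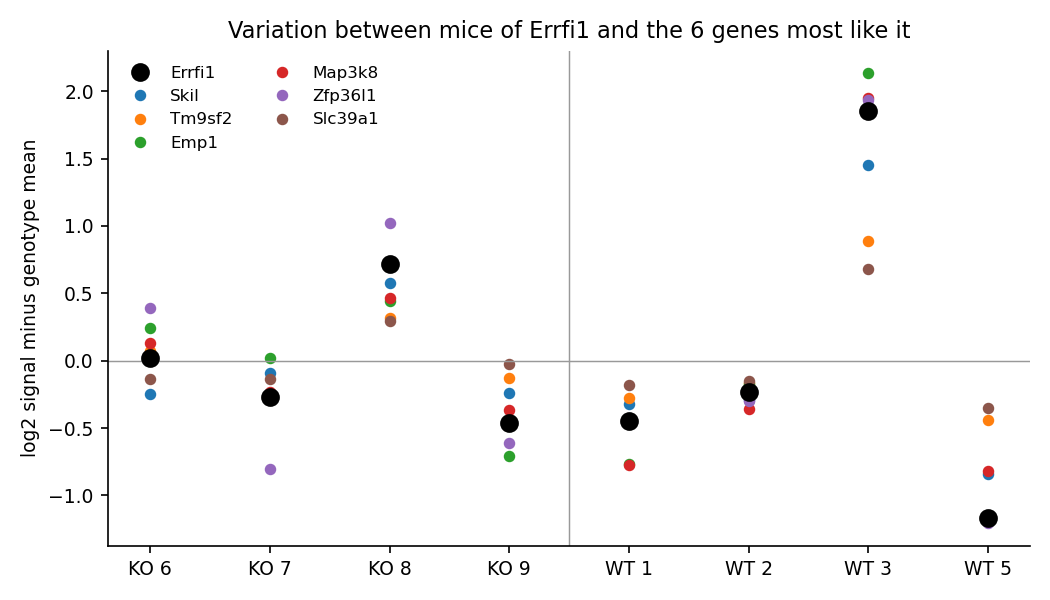
Log2 signal minus the genotype mean (vertical axis) of *Errfi1* (black) and the 6 probe sets most like it, in each of the 8 mice (horizontal axis). All 7 genes are at their highest in WT 3 and low in WT 5, and their r with *Errfi1* was 0.965 to 0.983.

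Marker lists of other cell types were compared as a description, and their part in the results was not tested. In every list the list means of KO and WT mice overlapped. Of 7 measured nerve and Schwann cell markers, 6 had a lower mean in KO mice. At the cutoff was 1, the myelin gene *Mbp* (limma, adjusted p = 0.848), beside 0.297% of all probe sets lower at the cutoff. The list means were 6.71 to 8.19 in KO mice and 7.48 to 10.1 in WT mice. WT mouse 1 was the highest in that list. Of the neutrophil markers, 11 of 12 had a lower mean in KO mice (median log2 fold change -0.46). The neutrophil list mean was lowest in KO mouse 6, at 14.56, with 16.05, 16.83 and 16.10 in KO mice 7, 8 and 9. In WT mice that list mean ran from 16.14 to 16.73. A lower mean in KO mice was also found for 7 of 10 skeletal muscle markers (median -0.39). Of the 10 muscle markers, 4 lay above background on all arrays. *Tnnt3*, a troponin gene, was at the cutoff but lay above background only on the array of WT mouse 1, so no fold change is read from it. Muscle list means ran from 5.89 to 6.40 in KO mice and from 6.21 to 7.67 in WT mice. The highest was that of WT mouse 1, with 6.21 to 6.57 in the other WT mice. Of 6 erythroid markers measured, 1 had a lower and 5 a higher mean in KO mice (median 0.56), with list means of 11.5 to 12.7 in KO mice and 10.4 to 12.6 in WT mice. The mean of 10 mast cell and basophil markers, 5 of them lower in KO mice, ran from 6.61 to 8.10 in KO mice and from 7.02 to 8.68 in WT mice, highest in WT mouse 3. The mean of 10 epithelial markers ran from 5.09 to 5.68 in KO mice and from 5.04 to 5.81 in WT mice, close to background. Of 8 nucleus pulposus markers measured, 1 had a lower mean in KO mice (median 0.28). The median was -0.004 for macrophage, -0.05 for endothelial and 0.14 for adipocyte markers.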

How the data were processed

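AF tissue RNA of 4 KO and 4 WT mice was measured on Mouse Clariom S arrays, 1 array per mouse. The authors scanned the arrays, summarised them in the Transcriptome Analysis Console and deposited log2 signal after sst-RMA, a transformation of each array's signal followed by background correction, normalization and summary, on whose scale all fold changes here depend. Of 28846 probe sets, 6640 controls were left out, and of the 22206 tested, 19572 had 1 gene symbol, 0 had several and 2634 had none. All 19572 were found by gene ID in the RefSeq annotation of GRCm38.p6. The study's filter on detection p-values was not repeated, as the value table used here holds none, and 0 sample columns were left out.

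KO minus WT was fitted with limma 3.58.1 (lmFit, eBayes, no covariates) in R 4.3.3, and p-values were adjusted across the whole table by the Benjamini-Hochberg method. The cutoff, unadjusted p ≤ 0.01 and fold change ≥ 1.75, is that of the study's methods. The procedure was tested on simulated data. A probe set counts as above background when it exceeds its array's negative control median. The members and the gene lists were chosen with earlier results of these data known.

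Named were all members, every pathway list gene at the cutoff, the smallest p of each list, the neighbours of *Errfi1* in the order of decreases, and the 6 probe sets most like it. Alternatives were quantile normalization, median centring, a filter on low signal, array quality weights, robust priors with an intensity trend, the unpaired t-test, the control contrast as a covariate, other cutoffs, means for medians in the control contrast, and each mouse left out in turn. The number of arrays limits the precision. Nothing in the sources gives scan dates or batches.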

Additional observations from a re-analysis of the deposited data

Results flagged for a closer look

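Within each genotype, the highest or lowest mouse was compared with the other 3 by the ratio of its gap to the range, over 38 groups of 19 probe sets, and chance alone is expected to mark about 1 in 20. In 3 groups 1 mouse stood apart. *Hbegf* was 6.76 in KO mouse 6, above 5.87 to 5.95 in the other KO mice. *Fosb* was 9.06 in KO mouse 9, below 10.48 to 10.68 in the other KO mice. *Map3k8* was 10.21 in WT mouse 3, above 7.44 to 7.90 in the other WT mice.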

How the results depend on the processing

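At the cutoff 161 probe sets were called in both directions, and the count was 100 with the filter on low signal, 704 with array quality weights, 73 with the t-test, 71 with the control contrast as a covariate, 897 at a p cutoff of 0.05, and 49 (without WT mouse 3) to 992 (without KO mouse 8) with 1 mouse left out. For the pathway lists, the 4 decreases were 2 after quantile normalization, 1 with the t-test, 1 with the covariate, 9 at a p cutoff of 0.05, and 1 (without KO mouse 7, KO mouse 9 or WT mouse 2) to 9 (without WT mouse 5) with 1 mouse left out; without WT mouse 3 the 2 left were *Fosb* and *Sos1*. Of the EGF receptor genes, the 1 at the cutoff was *Errfi1*, which chose the set, so its calls say nothing of stability: the count was 0 with the t-test, at the same fold change and an unadjusted p of 0.0104, and 1 to 1 with 1 mouse left out. The log2 fold change of *Errfi1* was -2.62 to -2.07 over the other settings and -2.96 to -1.95 with 1 mouse left out. Signs turned when 1 mouse was left out for *Egfr* (in 1 case), *Ereg* (2) and *Hbegf* (1), and the cause was not tested. The control contrast difference was -0.62 with means, and -1.08 to -0.44 with 1 mouse left out. No paired analysis was run, because the sample labels number the mice and do not say whether KO and WT mice were paired. Signal under the negative controls limits what can be said of *Egfr*, *Erbb3*, *Ereg* and *Tgfa*.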
